A study of Homo sapiens with 8 samples.

Results

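The 9 genes described here encode proteins that hydrolyse or move lipids inside the lysosome: NPC1, NPC2, SMPD1, LIPA, ASAH1, GLA, GALC, PSAP and PLA2G15. They were chosen by name for this function from the 55765 gene names of the deposited tables, and each had 1 row in every table. Total RNA of the human acute myeloid leukaemia cell lines NB4 and Kasumi-1 was sequenced untreated and after 6, 12 and 24 h with 40 uM chlorprothixene, a thioxanthene antipsychotic and a cationic amphiphilic drug. The PML-RARA fusion of promyelocytic leukaemia is present in NB4 and the RUNX1-RUNX1T1 fusion in Kasumi-1, and both were grown with fetal bovine serum. Each of the 8 conditions is 1 library, no vehicle is named and 1 untreated library per line serves all times, so drug and time in culture cannot be told apart and no value below carries a spread between cultures. Levels are TPM, an abundance scaled for transcript length and to the same total in every library, so they can be set side by side between genes.

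Lipids that reach the lysosome with endocytosed lipoproteins and membranes are taken apart there by soluble hydrolases, most of which need an acidic lumen and an anionic inner membrane. Cholesterol freed by the acid lipase is handed by the small luminal protein NPC2 to the membrane protein NPC1, which passes it to the limiting membrane. Sphingolipids are cut step by step, often with the help of small activator proteins, down to ceramide and sphingosine. Cationic amphiphilic drugs collect in acidic organelles, can detach several of these hydrolases from the inner membrane, and are known for causing phospholipid to build up in lysosomes.

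Read totals are not used here, and depth is described by the deposited coverage per base. Its commonest ratio to FPKM (a measure that scales with depth) lay between 7.08 and 9.83 in the 8 libraries. Only 12.5% to 14.5% of the rows used for it shared that ratio. Mitochondrially encoded genes took 5.04% to 6.71% of the TPM in NB4 and 7.94% to 17.1% in Kasumi-1, where the share was highest at 24 h. RUNX1T1 stood at 58.0 to 92.5 TPM in Kasumi-1 and at or under 0.0476 TPM in NB4, and MPO, a granule gene of granulocyte precursors, at 1528 TPM or more in every library. The median of the 14650 genes tested moved by -0.08 to 0.01 in a treated library on the scale of log2(TPM + 1), which is the scale of every change below.

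The promoters of the cholesterol transfer genes NPC1 and NPC2 and of SMPD1, which encodes acid sphingomyelinase, are shown because these 3 members had the largest mean changes with the drug. The sequences are the 250 bases before the annotated start in RefSeq, written 5′ to 3′ on the gene's strand, with GRCh38.p14 coordinates (the deposited tables use hg19). Capitals mark the letters GGGCGG of the GC box on either strand, whose matches may overlap. The stretch of NPC1 lies on chromosome 18 from 23586507 to 23586756 (minus strand). That of NPC2 lies on chromosome 14 from 74493513 to 74493762 (minus strand), before 1 of its 2 listed starts, and that of SMPD1 on chromosome 11 from 6390224 to 6390473 (plus strand).
NPC1: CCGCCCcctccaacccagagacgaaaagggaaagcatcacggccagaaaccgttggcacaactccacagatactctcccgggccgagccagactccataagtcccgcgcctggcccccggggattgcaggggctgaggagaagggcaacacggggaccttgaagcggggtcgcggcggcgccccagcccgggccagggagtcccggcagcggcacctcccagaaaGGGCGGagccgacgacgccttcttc
NPC2: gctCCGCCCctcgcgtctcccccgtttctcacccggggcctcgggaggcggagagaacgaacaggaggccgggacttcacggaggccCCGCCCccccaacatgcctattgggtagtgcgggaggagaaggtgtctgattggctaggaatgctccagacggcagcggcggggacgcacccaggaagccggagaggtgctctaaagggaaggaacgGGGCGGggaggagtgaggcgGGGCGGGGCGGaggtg
SMPD1: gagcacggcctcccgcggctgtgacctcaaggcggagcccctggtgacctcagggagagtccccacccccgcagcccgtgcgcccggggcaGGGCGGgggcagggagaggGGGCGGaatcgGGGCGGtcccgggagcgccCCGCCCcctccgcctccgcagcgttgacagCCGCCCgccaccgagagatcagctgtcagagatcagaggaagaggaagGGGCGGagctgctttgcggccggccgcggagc

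The GC box was added to the search after the promoter table had been seen. GC boxes were present 2 times in the NPC1 stretch, 5 times in that of NPC2 and 6 times in that of SMPD1, and 68.4%, 69.2% and 75.2% of the bases were G or C. Over the full windows of the table (250 bases before to 50 after a start), 7 members had 13 windows, and PSAP and ASAH1 had no entry. A GC box was found in 9 of these 13 windows, against 45.0% of all 35116 windows. Each of the 7 genes had it in at least 1 window, but no share by gene was computed, and genes with several windows had more chances. Some windows of GALC and LIPA lacked it. As the motif was chosen after the windows had been seen, these counts are a description. The core E-box CACGTG, its extension TCACGTGA (the centre of the element bound by the TFEB family of lysosomal regulators) and the letters TCACCCCAC of the sterol regulatory element were searched on both strands, and the extension contains the core. They were found in 0 of the 13 windows, and in 7.26%, 0.980% and 0.430% of all windows. With shares this low, 0 of 13 says little, so the members are not shown to lack these elements.

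Untreated, the members spanned a wide range of abundance in both lines. PSAP, the precursor of the saposins that activate sphingolipid hydrolases, was the most abundant member in every library, with 344 TPM in untreated NB4 and 367 TPM in untreated Kasumi-1. GLA, the alpha-galactosidase that trims globotriaosylceramide, and ASAH1, the acid ceramidase, came next, at 83.6 and 47.6 TPM in NB4 and, in the other order, at 79.6 and 82.0 TPM in Kasumi-1. SMPD1 and the lysosomal phospholipase gene PLA2G15 were low in NB4, at 2.73 and 2.09 TPM, and stood at 4.20 and 10.1 TPM in Kasumi-1. The summed TPM of the 9 genes was 564 in untreated NB4, then 620, 810 and 1071 at 6, 12 and 24 h, and 654 in untreated Kasumi-1, then 965, 1106 and 1113. PSAP held 54.1% to 62.7% of that sum in each library, so the sum mostly follows this gene.

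**Figure D1:**
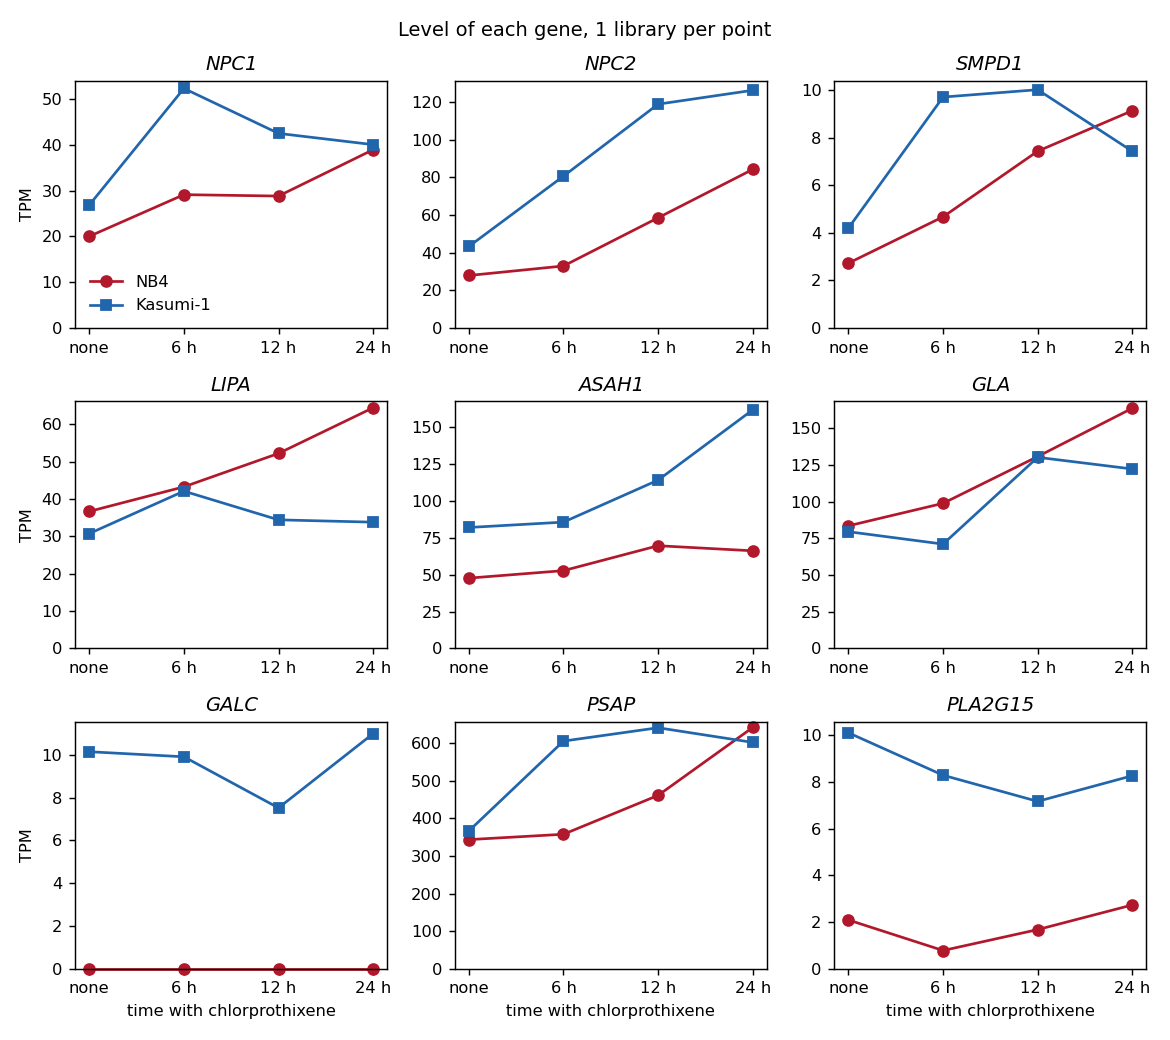
Level of each of the 9 genes in TPM (vertical axis, from 0) without drug and after 6, 12 and 24 h (horizontal axis), with NB4 as circles and Kasumi-1 as squares and 1 library per point. NPC2 reaches 84.1 TPM in NB4, against 126 TPM in Kasumi-1 at 24 h, GALC lies at 0 in all 4 NB4 libraries, and PLA2G15 is lower in NB4 than in Kasumi-1 in each condition.

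The first comparison asks what both lines did alike with the drug. NPC2, SMPD1, NPC1, PSAP, GLA and ASAH1 were higher at an unadjusted p under 0.05 in the additive limma model (mean of the 3 times minus untreated, with cell line as a term), with mean log2 changes from 1.11 for NPC2 to 0.44 for ASAH1. After Benjamini-Hochberg adjustment over all 14650 genes, limma called 0 of the 9 members, and 0.0273% of all genes upward. The unadjusted count was 6 of 9 upward against 9.30% of all genes, and 0 of 9 downward against 11.1%. Since the members were named with results of these data known, this count is a description. The median of the 9 shared changes was 0.50, beside -0.03 over all genes tested, and by library it was 0.23, 0.50 and 0.90 in NB4, against 0.44, 0.64 and 0.61 in Kasumi-1. All 6 treated libraries were above untreated for NPC1, NPC2, SMPD1, LIPA, ASAH1 and PSAP (6 of 9, beside 12.9% of all genes), and below it for 0 of 9 (16.9% of all genes). GALC, listed at 0 in every NB4 library, is in these counts and medians but could not change in that line. The model rests on 3 residual degrees of freedom, so a small p marks a change that is large against the disagreement of the lines. Without a cell line term the unadjusted count fell to 1 of 9 (SMPD1).

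Of the sterol handling genes, NPC2 (chromosome 14, 74942895 to 74960880, hg19, minus strand) had the largest mean change. It had 27.8 TPM in untreated NB4, then 32.9, 58.5 and 84.1 TPM, and 43.2 TPM in untreated Kasumi-1, then 80.6, 119 and 126 TPM. All 6 treated libraries were above the untreated one of their line, NB4 moved little by 6 h, and Kasumi-1 had nearly reached its highest level by 12 h. The shared change was 1.11 (SE 0.17, 95% interval 0.71 to 1.52, limma adjusted p = 0.0748). At 24 h the level was 3.02 times untreated in NB4 and 2.92 times in Kasumi-1, and 2.60% and 1.55% of all tested genes had a larger change in those libraries.

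NPC1 (chromosome 18, 21086148 to 21166862, minus strand), the membrane partner of NPC2, had a smaller mean change and another time course in Kasumi-1. It had 20.0 TPM in untreated NB4, then 29.1, 28.8 and 39.0 TPM, and 26.9 TPM in untreated Kasumi-1, then 52.4, 42.5 and 40.1 TPM. Its highest treated level was thus at 24 h in NB4 and at 6 h in Kasumi-1. The shared change was 0.68 (SE 0.18, 95% interval 0.26 to 1.10, limma adjusted p = 0.121). The ratio of NPC2 to NPC1 in TPM was 1.39 in untreated NB4 and 2.16 at 24 h, and 1.61 in untreated Kasumi-1 and 3.15 at 24 h. At 6 h it was at 1.13 and 1.54, below untreated in both lines. NPC1 shares its span with C18orf8 (19.2 to 33.5 TPM) and NPC2 with ISCA2 (10.5 to 16.6 TPM), and the strand setting of the counting is not given in the sources used here.

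LIPA (chromosome 10, 90973326 to 91174314, minus strand) encodes the acid lipase that frees cholesterol from its esters. It had 36.7 TPM in untreated NB4, then 43.3, 52.2 and 64.5 TPM, and 30.8 TPM in untreated Kasumi-1, then 42.1, 34.4 and 33.8 TPM. In NB4 it was higher at each later time, while in Kasumi-1 the 12 and 24 h libraries lay close to untreated. For LIPA the shared change was 0.38 (SE 0.19, 95% interval -0.08 to 0.83, limma adjusted p = 0.316). The deposited row of LIPA spans 200989 bases and overlaps the interferon-stimulated genes IFIT1, IFIT2 and IFIT3 on the opposite strand. Untreated Kasumi-1 had 13.3, 7.51 and 13.4 TPM of these, and the 6 h library 35.6, 22.7 and 22.8 TPM, at the time of the highest LIPA level in that line. At 12 h these 3 genes were still at 35.0, 21.3 and 23.2 TPM, while LIPA stood at 34.4 TPM. In NB4, where LIPA was highest at 24 h, IFIT1 had 4.92 TPM untreated and 5.01 TPM at that time. Between the same 2 libraries IFIT2 went from 2.32 to 5.85 TPM and IFIT3 from 4.67 to 10.4 TPM. The part of these genes in the LIPA value was not tested. The coverage of LIPA was 2.04 to 4.13 reads per base, only 0.138 to 0.190 of its FPKM value, against 1.36 to 8.61 for the other members in the libraries where they were above 0.

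**Figure D2:**
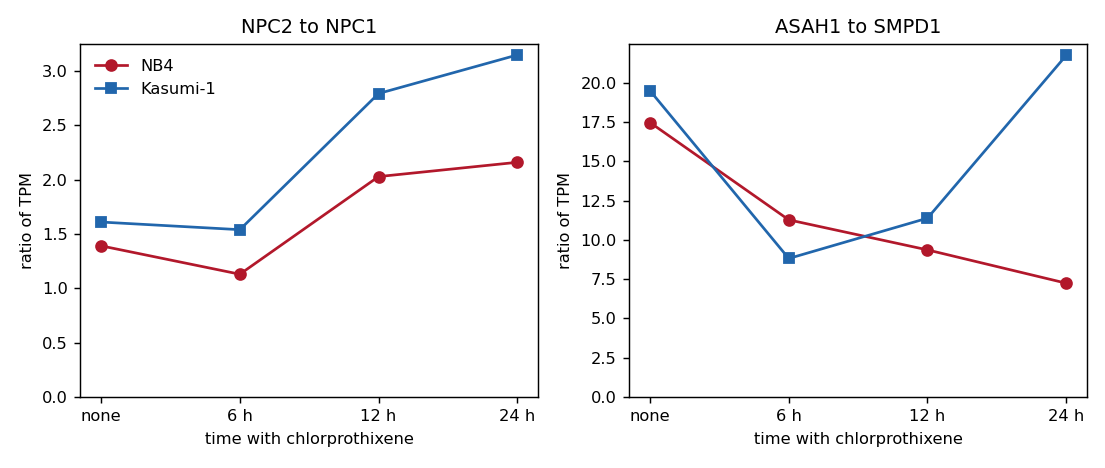
Ratio of TPM (vertical axes, from 0) of NPC2 to NPC1 and of ASAH1 to SMPD1 in each library (horizontal axis: untreated, 6, 12 and 24 h), NB4 as circles and Kasumi-1 as squares. The first ratio ends at 2.16 and 3.15 at 24 h, and the second ends at 7.24 in NB4, against 21.8 in Kasumi-1.

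Among the sphingolipid hydrolases, SMPD1 (chromosome 11, 6411655 to 6416228, plus strand), which cuts sphingomyelin to ceramide, was low but had the largest mean change. It had 2.73 TPM in untreated NB4, then 4.68, 7.44 and 9.14 TPM, and 4.20 TPM in untreated Kasumi-1, then 9.72, 10.0 and 7.44 TPM. All 6 treated libraries were above untreated, and the level in Kasumi-1 at 24 h was below that at 6 and 12 h. The change of SMPD1 over both lines was 1.01 (SE 0.25, 95% interval 0.41 to 1.61, limma adjusted p = 0.118), and with a pseudocount of 0.1 it was 1.19. The 24 h level was 3.35 times untreated in NB4 and 1.77 times in Kasumi-1. SMPD1 overlaps no other listed gene, and its coverage was 7.84 to 31.3 reads per base.

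ASAH1 (chromosome 8, 17913934 to 17942494, minus strand) encodes the enzyme of the next step, from ceramide to sphingosine. It had 47.6 TPM in untreated NB4, then 52.7, 69.6 and 66.2 TPM, and 82.0 TPM in untreated Kasumi-1, then 85.6, 114 and 162 TPM. Both lines lay near untreated at 6 h, and Kasumi-1 was highest at 24 h, the time at which its SMPD1 level had come down. For ASAH1 the shared change was 0.44 (SE 0.16, 95% interval 0.07 to 0.81, limma adjusted p = 0.187). The ratio of ASAH1 to SMPD1 in TPM was 17.5 in untreated NB4, then 11.3, 9.36 and 7.24, and 19.5 in untreated Kasumi-1, then 8.81, 11.4 and 21.8. It was thus lower at each later time in NB4, and back above its untreated value at 24 h in Kasumi-1. The Kasumi-1 library at 24 h is the one with the mitochondrial share of 17.1%, and without it the shared change of ASAH1 was 0.35 and that of SMPD1 was 1.15.

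PSAP (chromosome 10, 73576055 to 73611126, minus strand) had 344 TPM in untreated NB4, then 358, 461 and 642 TPM, and 367 TPM in untreated Kasumi-1, then 605, 641 and 602 TPM. NB4 was near its untreated level at 6 h, whereas Kasumi-1 had reached its treated range by then. The shared change was 0.60 (SE 0.19, 95% interval 0.16 to 1.04, limma adjusted p = 0.154). GLA (chromosome X, 100652791 to 100662913, minus strand) had 83.6 TPM in untreated NB4, then 98.9, 131 and 164 TPM, and 79.6 TPM in untreated Kasumi-1, then 71.1, 130.3 and 122 TPM. Its Kasumi-1 library at 6 h was below untreated, and the other 5 treated libraries were above. The shared change of GLA was 0.50 (SE 0.14, 95% interval 0.16 to 0.84, limma adjusted p = 0.140). GLA overlaps RPL36A-HNRNPH2 on the opposite strand, a readthrough gene whose level swung between 1.77 and 73.8 TPM in Kasumi-1, with the lowest value at 12 h, where GLA was highest in that line. In NB4 the readthrough gene was at 5.81 to 11.8 TPM up to 12 h and at 64.0 TPM at 24 h, where GLA was highest too, and its part in the GLA values was not tested.

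GALC (chromosome 14, 88304164 to 88460009, minus strand), the galactosylceramidase, was listed at 0 in all 4 NB4 libraries. In Kasumi-1 it stood at 10.1 TPM untreated and at 9.91, 7.52 and 10.99 TPM with the drug. No fold can be given between the lines, and a listed 0 can be a failed estimate. The 6 nearest genes averaging 1 TPM or more, 3 on each side, among them ZC3H14 (41.9 to 60.7 TPM in NB4) and SPATA7 (1.64 to 3.16 TPM in NB4), had values above 0 in every NB4 library. The change within Kasumi-1 was -0.03, -0.39 and 0.11 at 6, 12 and 24 h. Since NB4 is at 0 throughout, its change is 0 by construction, and tests that include NB4 say nothing of GALC there.

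PLA2G15 (chromosome 16, 68279207 to 68294961, plus strand), the lysosomal phospholipase whose inhibition by cationic amphiphilic drugs has been linked to phospholipid storage, did not share the upward direction of most members. It had 2.09 TPM in untreated NB4, then 0.783, 1.68 and 2.73 TPM, and 10.1 TPM in untreated Kasumi-1, then 8.29, 7.17 and 8.27 TPM. Treated libraries were below untreated in 5 of 6 cases, with NB4 at 24 h above. The shared change was -0.28 (SE 0.25, 95% interval -0.87 to 0.31, limma adjusted p = 0.547). The lowest value, in NB4 at 6 h, rests on a mean coverage of 1.85 reads per base.

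**Figure D3:**
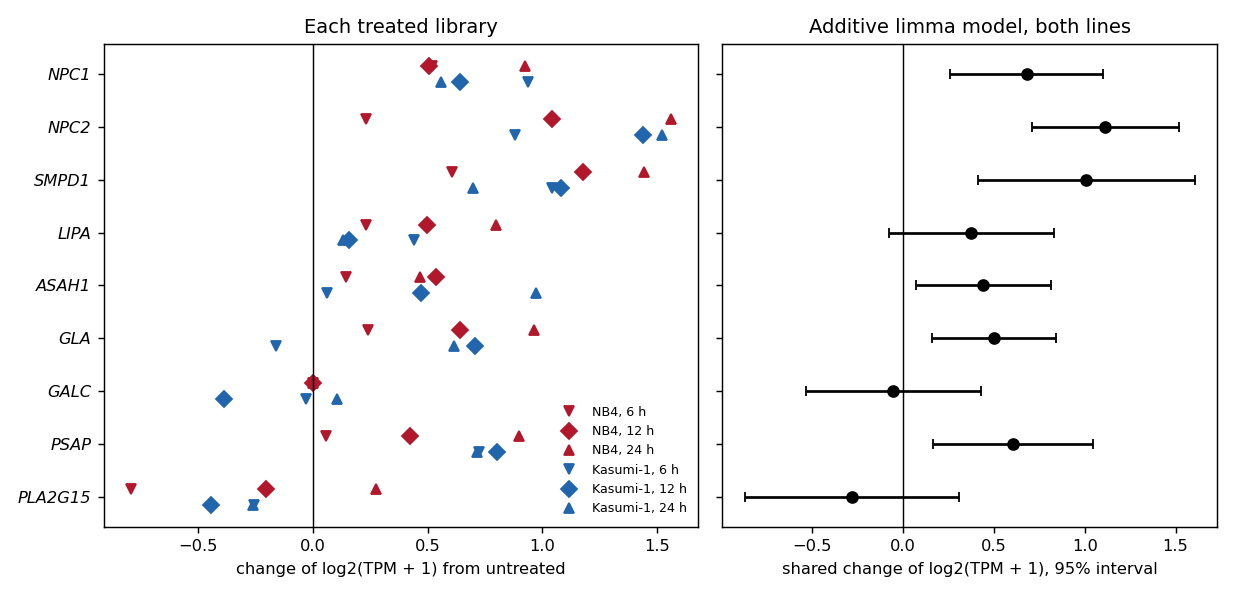
Left, change of log2(TPM + 1) against the line's untreated library (horizontal axis) for each gene in each treated library, NB4 in red and Kasumi-1 in blue, with the time as the symbol. Right, the shared change with its 95% interval from the additive limma model; the intervals of LIPA and PLA2G15 include 0, that of NPC2 runs from 0.71 to 1.52, and that of GALC is not read because NB4 is listed at 0.

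The members were also compared by how their levels unfolded within a line, for which no test was run. In NB4, 5 of 9 (NPC2, SMPD1, LIPA, GLA and PSAP) were higher at each later time from untreated to 24 h, a pattern of 9.15% of all genes. GALC, listed at 0 in every NB4 library, is among the 9 in each NB4 count but could not meet any of these patterns there. In Kasumi-1, 2 of 9 (NPC2 and ASAH1) had this pattern, which 5.0% of all genes showed. A change of at least 2-fold on the log2(TPM + 1) scale in the same direction at all 3 times was found for 0 of 9 members in either line, beside 2.03% of all genes upward and 0.703% downward for NB4, and 1.88% and 0.655% for Kasumi-1. At single times, a change of at least 2-fold upward was found for 0 of 9 members in NB4 at 6 h (3.06% of all genes), and for NPC2 and SMPD1 there at 12 h (5.60%) and 24 h (6.51%). In Kasumi-1 it was found for SMPD1 at 6 h (6.44%), for NPC2 and SMPD1 at 12 h (4.85%) and for NPC2 at 24 h (5.11%). With 1.5-fold at all 3 times as the limit, SMPD1 qualified upward in NB4 (5.60% of all genes) and NPC2, SMPD1 and PSAP in Kasumi-1 (5.49% of all genes).

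The profiles most like that of NPC2 were sought by the root mean square distance over the 6 changes from untreated, among 10950 genes averaging 5 TPM or more. The nearest was IRF9, a subunit of the interferon-activated factor ISGF3 (distance 0.18), with 3.57 TPM untreated and 13.1 TPM at 24 h in NB4, against 6.91 and 24.7 TPM in Kasumi-1. The next was TIMP1, an inhibitor of matrix proteases (distance 0.22), with 109 and 292 TPM in NB4, against 66.0 and 145 TPM in Kasumi-1. Both were above untreated in all 6 treated libraries, as NPC2 was, which is largely set by picking them over these same 6 changes. Nearest to SMPD1 was STARD10, a phospholipid transfer protein gene (distance 0.12), with 5.36 and 13.7 TPM in NB4, against 6.66 and 11.7 TPM in Kasumi-1 for the same conditions. TNFRSF10B, a death receptor gene, followed (distance 0.16), with 39.5 and 109.3 TPM in NB4, against 14.6 and 19.4 TPM in Kasumi-1. The distances rest on 6 points, with the 3 of a line sharing 1 untreated library.

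The next comparison asks where the lines differed in level over their 4 conditions. Of the 8 members above 0 in both lines, 4 (PLA2G15, ASAH1, NPC2 and NPC1) were lower in NB4 at a limma adjusted p under 0.05, beside 27.8% of all genes, and 0 were higher, beside 27.5%. GALC is left out of this count, since it is listed at 0 in NB4 and passed the filter on low values through Kasumi-1 alone. PLA2G15 was lower by 1.79 in NB4 (difference -1.79, SE 0.22, limma adjusted p = 5.06e-04), with 0.783 to 2.73 TPM against 7.17 to 10.1 TPM. ASAH1 differed by -0.86 (SE 0.14, adjusted p = 0.00171 in limma), with 47.6 to 69.6 TPM against 82.0 to 162 TPM. The ranges of the lines did not overlap for ASAH1 and PLA2G15, with NB4 below, as was so for 24.5% of all genes. NPC2 differed by -0.87 (SE 0.15, adjusted p = 0.00250 in limma). It was lower in NB4 in 4 of 4 conditions, as were 32.5% of all genes, though its ranges overlapped.

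NPC1 differed by -0.45 (SE 0.15, limma adjusted p = 0.0405). In TPM, though, its gap had nearly closed at 24 h, with 39.0 TPM in NB4, against 40.1 TPM in Kasumi-1. Mitochondrially encoded genes took 17.1% of the TPM in that Kasumi-1 library, against 5.62% in NB4, and their part in this was not tested. With TPM rescaled without these genes and the 10 most abundant others of each library, the mean difference of NPC1 was -0.55 (limma adjusted p = 0.0160). On the TPM as deposited, the NPC1 call was lost without either untreated library (adjusted p = 0.0717 without NB4, 0.0723 without Kasumi-1), without either 6 h library (0.158 and 0.161) or without either 12 h library (0.132 and 0.133). LIPA was higher in NB4 in 4 of 4 conditions, as were 31.6% of all genes. The mean difference of LIPA was 0.45 (SE 0.17, limma adjusted p = 0.0550), and it passed without either 6 h library (0.0387 for each). GLA, PSAP and SMPD1 differed by 0.24, -0.31 and -0.38 (limma adjusted p = 0.142, 0.144 and 0.179). With the rescaled TPM, LIPA, GLA, PSAP and SMPD1 differed by 0.36, 0.15, -0.40 and -0.47 (limma adjusted p = 0.0867, 0.336, 0.0539 and 0.0987). PSAP was alike untreated at 344 and 367 TPM, and at 6 h stood at 358 TPM in NB4, against 605 TPM in Kasumi-1.

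**Figure D4:**
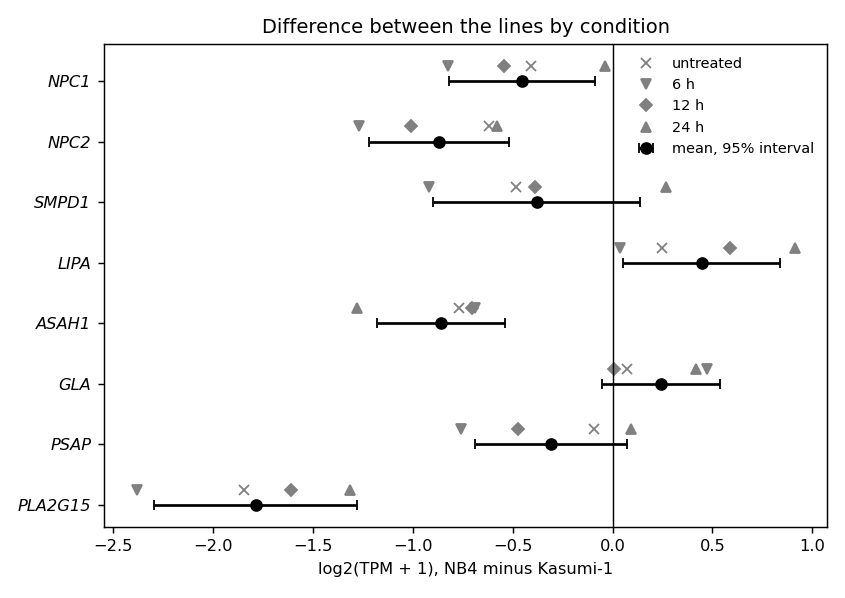
Difference of log2(TPM + 1) between the lines, NB4 minus Kasumi-1 (horizontal axis), for 8 genes without GALC, with the 4 conditions as grey symbols and the mean with its 95% limma interval as black points. PLA2G15, NPC2 and ASAH1 lie left of 0 in each condition, LIPA and GLA right of it, and NPC1 nears 0 at 24 h (39.0 against 40.1 TPM).

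Whether the response to the drug differed between the lines was tested by the product term of line and drug, where the 3 times stand as repeats within a line. Limma called 0 of 9 members in either direction at an adjusted p under 0.05, beside 0.0887% of all genes higher and 0.0410% lower in NB4, and 0 of 9 had an unadjusted p under 0.05, beside 6.37% of all genes higher and 4.22% lower (10.6% in either direction). The differences lay between -0.33 for NPC2 (95% interval -1.86 to 1.19) and 0.27 for LIPA (95% interval -0.54 to 1.07). For NPC1 the mean change was 0.65 in NB4, against 0.71 in Kasumi-1 (95% interval of the difference -0.85 to 0.72), and for SMPD1 1.08 and 0.94 (-1.01 to 1.28). GALC, at 0 in NB4, enters these counts but was not tested in that line. The intervals of NPC2, SMPD1, LIPA, ASAH1, GLA, PSAP and PLA2G15 reach past a 2-fold difference between the lines and that of NPC1 stays within it, so the lines are not shown to respond alike.

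Other genes of lysosomal lipid metabolism gave smaller medians than the members. Of 10 further sphingolipid genes tested, 2 had an unadjusted limma p under 0.05, both higher (ARSA and HEXA, 20% beside 9.30% of all genes). The median shared change of the 10 was 0.11. ARSA, the arylsulfatase that acts on sulfatide, had 8.11 TPM without drug and 12.5 TPM at 24 h in NB4, against 12.3 and 24.9 TPM in Kasumi-1 (shared change 0.53, limma adjusted p = 0.186). HEXA, a subunit of beta-hexosaminidase, stood at 92.9 and 156 TPM in NB4, against 101 and 145 TPM in Kasumi-1 (0.41, limma adjusted p = 0.195). Of 10 phospholipid and lipoprotein genes (median 0.17), CLN8, a carrier of new lysosomal enzymes out of the endoplasmic reticulum, and TMEM55B, a lysosomal membrane protein, were the 2 at that level, also higher (0.65 and 0.37, limma adjusted p = 0.172 and 0.212). They make up 20% of that list, beside the same 9.30%. A list of 12 genes was drawn up for cholesterol transport at endolysosomes, and not all of them carry cholesterol (median 0.04). Its 2 genes at that level were the membrane proteins LITAF and LAMP2, again higher (0.63 and 0.38, limma adjusted p = 0.214 and 0.161). They make up 16.7% of that list, beside 9.30%, and counts of 2 in such short lists are only a description. LAMP2 was abundant, with 152 TPM untreated and 216 TPM at 24 h in NB4, against 137 and 198 TPM in Kasumi-1.

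Genes that signal the state of the lysosome had a median close to that of the members, at 0.52. Of 10 tested members of the TFEB family and its partners, 5 had an unadjusted limma p under 0.05, all higher (beside 9.30% of all genes), and all 5 failed the adjustment over all genes. TFE3, a factor of this family, had 27.8 TPM in untreated NB4, then 55.7, 63.7 and 59.5 TPM, and 22.0 TPM in untreated Kasumi-1, then 45.6, 48.9 and 42.7 TPM (shared change 1.05, limma adjusted p = 0.0607). FNIP1 and FLCN form a complex that acts on the GTPase encoded by RRAGC and holds factors of this family in the cytoplasm. FNIP1 had 9.20 TPM in untreated NB4, then 18.7, 22.4 and 19.4 TPM, and 17.1 TPM in untreated Kasumi-1, then 37.0, 42.6 and 44.2 TPM (1.13, limma adjusted p = 0.0607). For RRAGC and FLCN the shared changes were 0.95 and 0.94 (limma adjusted p = 0.0748 and 0.0799). TFEB itself was low, with 1.66 TPM in untreated NB4, then 2.58, 2.17 and 3.22 TPM, and 0.829 TPM in untreated Kasumi-1, then 4.37, 1.89 and 1.73 TPM (0.69, limma adjusted p = 0.234).

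The members can be set beside 2 larger lists, with no test of the difference. Of 32 lysosomal proteases, glycosidases and proton pump subunits, 8 had an unadjusted limma p below 0.05, with 6 higher (9.30% of all genes) and 2 lower (11.1% of all genes), and the median shared change was 0.21. Of 23 genes of cholesterol synthesis and uptake, 17 were higher and 0 lower at that level, beside the same shares of 9.30% and 11.1%, with a median of 1.30. The response of that list differed between the lines for 19 of 23 genes at an unadjusted p under 0.05, all larger in NB4, beside 6.37% of all genes, where the members gave 0 of 9. By time, the cholesterol list had medians of 1.83, 2.20 and 2.27 in NB4 against 0.65, 0.25 and 0.67 in Kasumi-1, while those of the members lay between 0.23 and 0.90 in both lines.

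**Figure D5:**
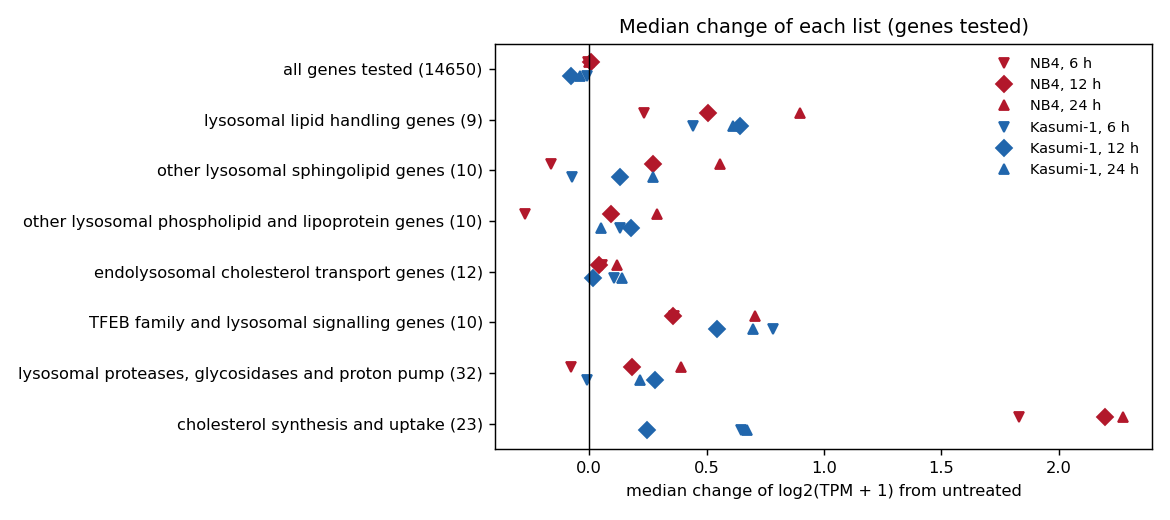
Median change of log2(TPM + 1) from untreated (horizontal axis) of each gene list in each treated library, NB4 in red and Kasumi-1 in blue, with the time as the symbol and the number of genes tested in parentheses. The lysosomal lipid handling genes lie between 0.23 and 0.90 and the cholesterol synthesis genes reach 2.27 in NB4.

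The summed level of markers of monocytes and macrophages, cells rich in lysosomes, moved in the same direction as that of the members. Single markers differed between the lines. The summed TPM of 10 such markers was 92.4 in untreated NB4, 151 at 12 h and 220.0 at 24 h, and 44.9 in untreated Kasumi-1, then 113, 202 and 239.6. Of the 6 tested, 4 had an unadjusted limma p under 0.05, all higher, beside 9.30% of all genes. ITGAM had 8.27 TPM untreated and 44.4 TPM at 24 h in NB4, and CSF1R 4.32 and 20.8 TPM. In Kasumi-1, ITGAM was at or under 1.85 TPM and CSF1R at or under 0.674 TPM in every library. ITGAX stood at 1.67 and 27.9 TPM in NB4, while untreated Kasumi-1 had 1.15 TPM and its 24 h library 10.2 TPM. FCGR1A had 12.3 TPM in untreated Kasumi-1 and 95.2 TPM at 12 h, and LYZ 25.5 TPM and, at 24 h, 142 TPM. In NB4, FCGR1A had 14.6 TPM untreated, then 14.1, 19.1 and 39.2 TPM, and LYZ 51.9 TPM, then 54.7, 48.9 and 66.7 TPM. Another 4 of the 10 were under 1 TPM in every library, with MSR1 at 0 throughout, CD163 at or under 0.0193 TPM, MRC1 at or under 0.00992 TPM and CD14 at or under 0.813 TPM. In bulk RNA, a shift in the kinds of cells and a change of RNA per cell cannot be told apart, and the part of these markers in the members' changes was not tested. Markers of granulocyte precursors summed to 6618 TPM in untreated NB4, then 4272, 2579 and 1837 TPM. In Kasumi-1 they summed to 17981 TPM untreated, to a higher 20809.5 TPM at 6 h, and then to 14815 and 13411 TPM. Single markers of this sum disagreed in Kasumi-1. PRTN3 was below untreated at all 3 times, with 5971 TPM untreated and 1771 TPM at 24 h. AZU1 was above untreated at all 3 times, with 1460 and 1883 TPM in the same libraries. MPO, ELANE and CTSG were above untreated at 6 h and below it at 24 h, and MPO moved little, from 9908 TPM untreated to 9340 TPM at 24 h. The progenitor genes KIT and CD34 had 449.8 and 112 TPM in untreated Kasumi-1, 72.5 and 18.3 TPM at 6 h, and 192 and 57.5 TPM at 24 h. The part of these genes in the members' changes was likewise not tested. Erythroid markers summed to at most 0.497 TPM in any library, with HBA1 and HBB at 0. Lymphoid markers summed to 4.83 to 21.3 TPM, with MS4A1 at 0, and epithelial and fibroblast markers to 17.5 to 29.7 TPM, mostly EPCAM, with COL1A2 at 0.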

How the data were processed

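Each of the 8 libraries has 1 deposited table with gene ID, name, position, coverage, FPKM and TPM. The submitters' processing notes name HISAT2, StringTie and the build hg19. Versions, options, annotation and strand setting: not given in the sources used here. The deposited TPM values (per transcript length, summing to the same total in every library) were used for all results, the deposited FPKM values as an alternative, and the deposited coverage, a signal per base of a gene, to describe depth, since no read counts were used. Libraries were grouped by the line and time in their titles. Rows of 1 gene name were summed. The 14650 genes averaging 1 TPM or more in these libraries, all 9 members included (GALC through Kasumi-1 alone), were tested on log2(TPM + 1), on which scale changes of low genes are understated, with limma 3.58.1 in R 4.3.3 (empirical Bayes with an intensity trend). Tests were two-sided, p-values were adjusted by Benjamini-Hochberg over all genes tested, and the threshold was 0.05. The shared response and the line difference came from an additive model of line and time (3 residual degrees of freedom), the response difference from line, treatment and their product (4 residual degrees of freedom). Residuals stand for how alike lines or times are, not for the spread of cultures. The fits were tested on simulated data. Other steps used Python 3.11.15 with pandas 2.3.3, numpy 2.4.6 and matplotlib 3.10.9. The members and gene lists were chosen with earlier results of these data known. Text names all members, the genes of related lists with an unadjusted p under 0.05 or a 2-fold change at all 3 times in a line (up to 5 a list), and the 2 nearest profiles of members that changed 2-fold. Genes are named in the text outside this rule for the label check, for overlaps, for the neighbours of GALC and among the marker lists.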

Additional observations from a re-analysis of the deposited data

How the results depend on the processing

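With 1 library per condition, precision is limited by the number of libraries, and values under about 1 TPM by depth. The direction of the shared change held for NPC1, NPC2, SMPD1, LIPA, ASAH1, GLA, PSAP and PLA2G15 under each alternative run, and 0 of the 9 passed the adjustment under any of them. The adjusted p ranged from 0.0609 to 0.9998 for NPC2, from 0.0697 to 0.9998 for SMPD1 and from 0.0756 to 0.9998 for NPC1, the upper ends coming from the fit without a cell line term. The number of members higher at an unadjusted p under 0.05 was 1 without a cell line term, and 4 to 7 when 1 library was left out. The shared change of GALC ranged from -0.121 to 0.0166 when 1 library was left out, turning in sign without Kasumi-1 at 12 h. For the line difference, counting GALC (5 members in all), 3 members were lower in NB4 with no filter on low values, 4 to 5 when 1 library was left out, and 0 to 1 were then higher. With no filter NPC1 and NPC2 lost their calls (adjusted p = 0.218 and 0.0532), and with no intensity trend NPC1 did (0.0554). The response difference, which was called for no member, turned in sign for 7 of 9 when 1 library was left out. It ranged from -0.201 to 0.0491 for NPC1, turning without NB4 at 6 h (0.00258), NB4 at 12 h (0.00992) and also without Kasumi-1 at 6 h, and from -0.642 to 0.0223 for NPC2, turning without NB4 at 6 h. It ranged from -0.0476 to 0.371 for SMPD1 and from -0.180 to 0.354 for PLA2G15, turning without NB4 at 24 h, and from -0.340 to 0.115 for ASAH1, turning without Kasumi-1 at 24 h. It ranged from -0.0456 to 0.414 for GLA, turning without Kasumi-1 at 6 h, and from -0.0373 to 0.209 for GALC, turning without Kasumi-1 at 12 h. With a pseudocount of 0.1 that of PLA2G15 was -0.0606. The cause was not tested. With 1.5-fold as the limit, 1 member qualified in NB4 while 3 did in Kasumi-1, where 2-fold gave 0 in either line. The response difference could not be fitted without an untreated library, and GALC has no value under the filter at 5 TPM. No paired analysis was possible because each condition has 1 library and no replicate number pairs them; the additive model matches the lines by condition.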
